A study of Mus musculus with 9 samples.

Results

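The mitochondrial beta-oxidation enzymes described here are 10 genes, Cpt1a, Slc25a20, Cpt2, Acadvl, Acadl, Acadm, Acads, Hadha, Hadhb and Hadh, taken by symbol from a table of 54146 genes, and each symbol matched 1 row. RNA-seq of colonic mucosa compared 5 ApcMin/+ mice (2 females and 3 males) with 4 ApcMin/+; p16cis/cis mice (3 females and 1 male), all C57BL/6J and 15 wk of age, to find genes that differ when p16 epimutation is added to an Apc mutation. All 9 mice carried the Min allele, a germline mutation of 1 copy of Apc that gives rise to intestinal adenomas, and there were no Apc wild-type mice in this comparison. The p16cis allele is a knock-in, on both copies in the second group, of a short sequence next to the p16 promoter that draws DNA methylation to it, and it is present in every cell of the animal rather than in the epithelium alone. Each mouse gave 1 library. Per the methods, RNA was taken from colonic crypts. Cdkn2a, the gene that encodes p16, was at 0 in all 9 mice, so the targeted gene gave no check of the labels.

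Beta-oxidation in the mitochondrial matrix shortens fatty acids from the carboxyl end, releasing acetyl-CoA with each turn of the cycle and passing electrons to the respiratory chain. Long-chain fatty acids first need the carnitine shuttle to cross the inner membrane, whereas short-chain acids enter without it. Colonocytes are known for burning butyrate, a short-chain acid made by gut bacteria, as a main fuel.

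The epithelium was well represented in both genotypes. The summed normalized count of 8 epithelial markers ranged from 186196 to 270629 in ApcMin/+ mice and from 185386 to 249731 in ApcMin/+; p16cis/cis mice. Of the 8, 0 passed the test between genotypes described below, but single markers moved in both directions. Epcam was lower without overlap, at 27841 to 38616 in ApcMin/+ mice and 24444 to 26913 in ApcMin/+; p16cis/cis mice (log2 fold change -0.38). Vil1 (-0.30) and Cdx2 (-0.25) were also negative, whereas Krt18 (0.39) and Cdx1 (0.24) were positive. Krt8 (-0.03), Krt19 (-0.03) and Cdh1 (0.01) hardly moved. Immune markers summed to at most 1974 and stromal and smooth muscle markers to at most 754 in any mouse, with Lyz2, Jchain and Col3a1 lower in ApcMin/+; p16cis/cis mice. Of 7 goblet cell markers 1 was higher (Spink4), and of 7 adipocyte markers the 1 with enough reads to test, Cidec, was lower, while the defining Lep was at 0 in every mouse. The 7 adipocyte markers summed to 128 to 425 in ApcMin/+ mice and 44.2 to 91.7 in ApcMin/+; p16cis/cis mice. Nearly all of this sum was Cidec, with means of 213 out of 224 in ApcMin/+ mice and 60.2 out of 64.4 in ApcMin/+; p16cis/cis mice. The sum therefore describes 1 gene, and the part of these markers in the results was not tested. The libraries held 15745098 to 17885918 reads on genes in ApcMin/+ mice and 13523500 to 14900228 in ApcMin/+; p16cis/cis mice, and each of the 10 enzymes was covered by at least 220 reads in every mouse. The share of reads on mitochondrially encoded genes was 24.2% ± 4.41 (SD, n = 4) with p16cis/cis and 12.0% ± 2.87 (SD, n = 5) without it, and no mouse of one genotype fell in the range of the other (two-sided exact permutation p = 0.00794, which is the lowest value this design can give). Depth and this share therefore moved with genotype beside every result below. In bulk tissue, fewer cells of a type and less RNA per cell cannot be told apart.

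Of the 10 enzymes, 5 were lower in ApcMin/+; p16cis/cis mice at a Benjamini-Hochberg adjusted p under 0.05 in limma (Slc25a20, Cpt1a, Acadvl, Acadl and Acadm), 0 were higher (also at an unadjusted p under 0.05, and in DESeq2 and edgeR) and 5 did not pass. Among all 14410 genes tested, 8.75% were lower and 8.14% were higher by the same rule. The sign of the log2 fold change, counted as ApcMin/+; p16cis/cis minus ApcMin/+ on log2(normalized count + 1), was negative for all 10, against 50.4% of all genes, and the median over the 10 was -0.48, against -0.00 over all genes. Put as a percent change, the log2 fold change was -28.5% for Acadl, the smallest of the enzymes that passed, and -44.3% for Acadvl, the largest. With the additional demand of a fold change over 2, 0 of the 10 passed, against 1.64% of all genes that were lower by that rule, and 0 passed after Bonferroni adjustment in limma, against 0.153%. In 6 of the 10 every ApcMin/+; p16cis/cis mouse was below every ApcMin/+ mouse, as in 8.95% of all genes. The gap was narrow for Hadhb (418.45 in the lowest ApcMin/+ mouse, 417.98 in the highest of the other genotype) and Cpt2 (2362.1 and 2360.1). ApcMin/+ replicate 4 was highest and replicate 3 second highest for 10 of 10 enzymes. The signs and gaps of the enzymes are therefore not independent of each other. The count of 5 fell to 3 without ApcMin/+ replicate 2, to 1 without ApcMin/+ replicate 3 or ApcMin/+; p16cis/cis replicate 2, and to 2 without ApcMin/+; p16cis/cis replicate 3 or 4, with Acadvl always among those left. It was 3 after a correction of each library for GC content and transcript length, in which Cpt1a (log2 fold change -0.48, limma adjusted p = 0.0723) and Acadl (-0.42, limma adjusted p = 0.0658) no longer passed.

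**Figure D1:**
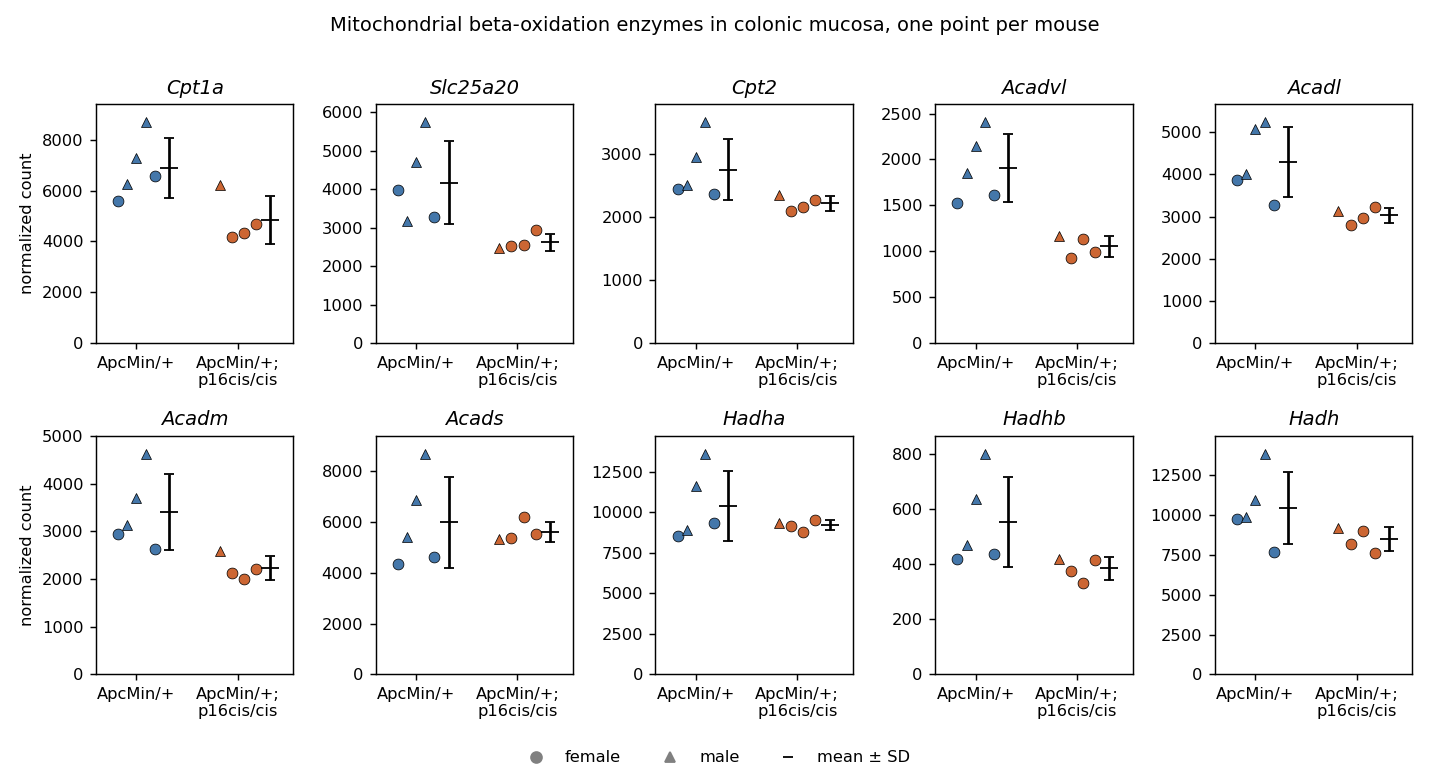
Normalized count (vertical axes, each from 0) of the 10 enzymes in the 5 ApcMin/+ mice (blue) and the 4 ApcMin/+; p16cis/cis mice (orange), in replicate order, with circles for females, triangles for males and bars for the mean ± SD. Acadvl shows the widest gap, with 1525 as the lowest ApcMin/+ mouse and 1163 as the highest ApcMin/+; p16cis/cis mouse, whereas the Acads and Hadha points overlap.

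The carnitine shuttle opens the pathway with Cpt1a (ENSMUSG00000024900.4, chromosome 19 from 3322334 to 3385733 of GRCm38, plus strand), the outer-membrane transferase that moves long-chain acyl groups onto carnitine and is held to be the regulated entry step. Its normalized counts were 5583, 6263, 7276, 8701 and 6589 in ApcMin/+ replicates 1 to 5 and 6238, 4155, 4338 and 4698 in ApcMin/+; p16cis/cis replicates 1 to 4. The male, replicate 1, was the one ApcMin/+; p16cis/cis mouse inside the ApcMin/+ range, and the 3 females were below it. Means were 6882 ± 1185 (SD, n = 5) and 4857 ± 948 (SD, n = 4), a log2 fold change of -0.51 (SE 0.15, limma adjusted p = 0.0411). Leaving out any of 6 mice (ApcMin/+ replicates 2, 3 and 5 and ApcMin/+; p16cis/cis replicates 2, 3 and 4) took the limma adjusted p above the threshold, up to 0.121.

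Slc25a20 (ENSMUSG00000032602.6, chromosome 9 from 108662088 to 108684641, plus strand) encodes the carrier that exchanges acylcarnitine for carnitine across the inner membrane. Its normalized counts were 3978, 3168, 4711, 5749 and 3275 in ApcMin/+ mice and 2471, 2514, 2547 and 2951 in ApcMin/+; p16cis/cis mice, with no overlap. Means were 4176 ± 1076 (SD, n = 5) and 2621 ± 222 (SD, n = 4), a log2 fold change of -0.64 (SE 0.16, limma adjusted p = 0.0228). Without ApcMin/+ replicate 3 the limma adjusted p of Slc25a20 was 0.0597, and without ApcMin/+; p16cis/cis replicate 2 it was 0.0643.

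Cpt2 (ENSMUSG00000028607.16, chromosome 4 from 107903981 to 107923610, minus strand) is the inner-membrane transferase that returns the acyl group to CoA. Normalized counts of Cpt2 were 2446, 2507, 2956, 3512 and 2362 in ApcMin/+ mice and 2360.1, 2093, 2164 and 2268 in ApcMin/+; p16cis/cis mice, so that the genotypes met without overlap at 2362 and 2360.1. The log2 fold change of -0.30 (95% interval -0.56 to -0.03) had a limma adjusted p of 0.114 and did not pass. Within a mouse, the log2 ratio of Slc25a20 to Cpt2 averaged 0.58 (SD 0.17, n = 5) in the first genotype and 0.24 (SD 0.13, n = 4) in the second, with overlap. This ratio and the 3 others below pair enzymes chosen after their values had been seen, so they are given as descriptions with no test.

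The acyl-CoA dehydrogenases carry out the first step of each turn and are named for the chain length they prefer, from very long (Acadvl) through long (Acadl) and medium (Acadm) to short (Acads). The test called 3 of the 4 lower and left out the short-chain enzyme. Acadvl (ENSMUSG00000018574.14, chromosome 11 from 70010183 to 70015411, minus strand) had the largest change of the 10. Its normalized counts were 1525, 1855, 2151, 2408 and 1613 in ApcMin/+ mice and 1163, 924, 1129 and 995 in ApcMin/+; p16cis/cis mice. Every mouse of the second group was below every mouse of the first. Means of Acadvl were 1910.4 ± 369 (SD, n = 5) and 1052 ± 112 (SD, n = 4), a log2 fold change of -0.84 (SE 0.14, 95% interval -1.15 to -0.54, limma adjusted p = 0.00448). Acadvl passed in 9 of 9 fits that left out 1 mouse, with limma adjusted p between 0.00221 and 0.0197, and in females alone (limma adjusted p = 0.0418). The 3′ end of Acadvl overlaps Dvl2 on the opposite strand, with 256 bp shared by their transcripts, and the sources used here do not state whether counting used strand. Dvl2 was at 308 ± 34.1 (SD, n = 5) and 297 ± 28.8 (SD, n = 4), a log2 fold change of -0.05 that did not pass (limma adjusted p = 0.836).

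Acadl (ENSMUSG00000026003.5, chromosome 1 from 66830839 to 66863277, minus strand) was at 3866, 4012, 5077, 5241 and 3270.2 in ApcMin/+ mice and at 3123, 2793, 2972 and 3215 in ApcMin/+; p16cis/cis mice. The groups did not overlap, with ApcMin/+ replicate 5 just above the highest mouse of the other genotype. Acadl means were 4293 ± 839.7 (SD, n = 5) and 3026 ± 184 (SD, n = 4), a log2 fold change of -0.48 (SE 0.14, limma adjusted p = 0.0333), and leaving out any of 6 mice (ApcMin/+ replicates 2 and 3 and each of the 4 ApcMin/+; p16cis/cis mice) raised the adjusted p over the threshold, to at most 0.0947.

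Acadm (ENSMUSG00000062908.12, chromosome 3 from 153922357 to 153944632, minus strand) was at 2954, 3124, 3705, 4632 and 2622 in ApcMin/+ mice and at 2596, 2125, 1999 and 2204 in ApcMin/+; p16cis/cis mice. Again the genotypes were apart, narrowly so between ApcMin/+ replicate 5 and the ApcMin/+; p16cis/cis male. Acadm means were 3407 ± 789 (SD, n = 5) and 2231 ± 258 (SD, n = 4), a log2 fold change of -0.59 (SE 0.15, limma adjusted p = 0.0245). The call on Acadm was lost without ApcMin/+ replicate 3 or ApcMin/+; p16cis/cis replicate 2, 3 or 4, where the limma adjusted p reached at most 0.0696. Gm5131, a processed pseudogene 93.5% identical to Acadm over 681 bp, had a mean normalized count of 0.653 over the 9 mice, beside 2885 for Acadm.

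Acads (ENSMUSG00000029545.13, chromosome 5 from 115110299 to 115119346, minus strand), acts on butyryl-CoA. It was at 4332, 5399.8, 6859, 8686 and 4619 in ApcMin/+ mice and at 5343, 5358, 6196 and 5516 in ApcMin/+; p16cis/cis mice, so all 4 mice of the second genotype lay within the range of the first. Means were 5979 ± 1803 (SD, n = 5) and 5603 ± 403 (SD, n = 4), and the log2 fold change of Acads was -0.05 (95% interval -0.45 to 0.35, limma adjusted p = 0.887). The interval does not show that Acads was the same in both genotypes, and it includes a change as large as the one measured for Cpt2. Acadvl and Acads had the largest and the smallest change of the 10, which fixes the direction of their ratio. On the log2 scale it was -1.51, -1.54, -1.67, -1.85 and -1.52 in ApcMin/+ mice and -2.20, -2.54, -2.46 and -2.47 in ApcMin/+; p16cis/cis mice. The genotypes did not overlap, with a mean difference of -0.80, and of -0.68 with the GC and length correction.

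**Figure D2:**
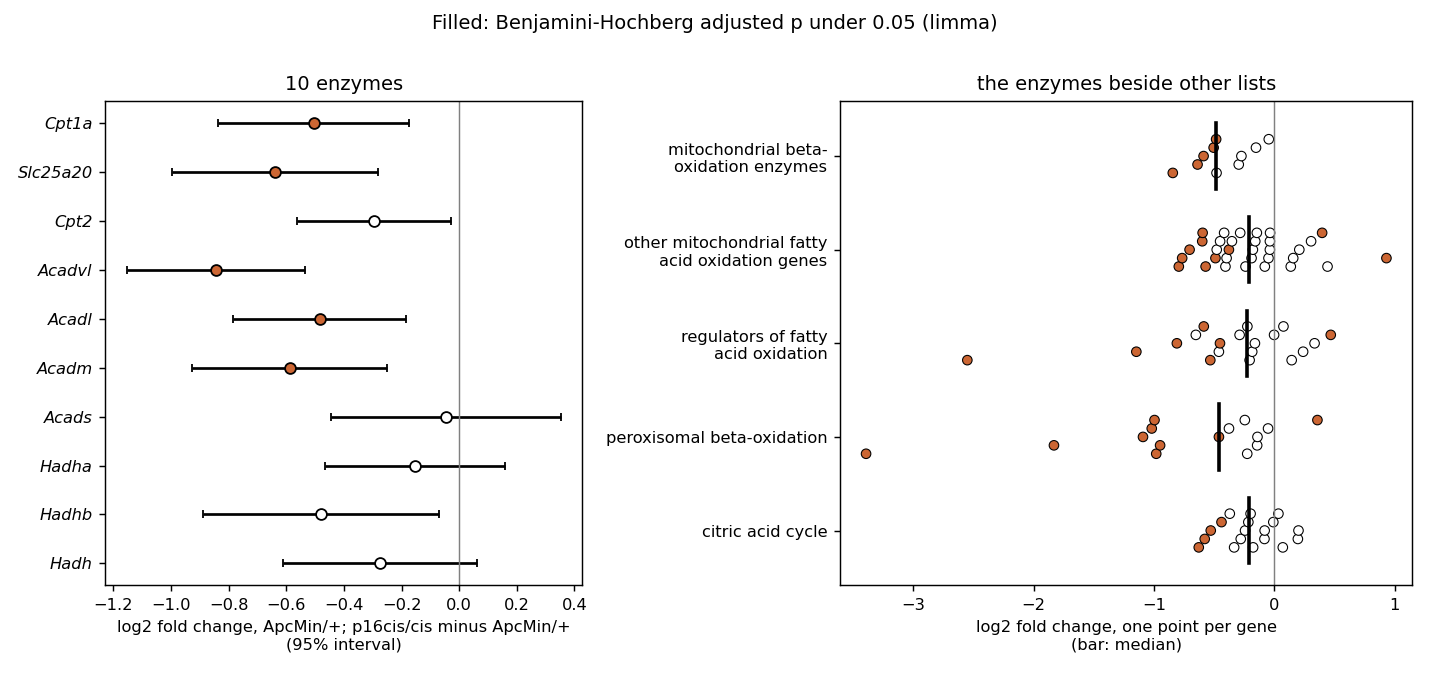
Log2 fold changes (ApcMin/+; p16cis/cis minus ApcMin/+), with 95% intervals for the 10 enzymes on the left and, on the right, 1 point per gene for the enzymes and 4 other lists with a bar at each median; filled points passed an adjusted p under 0.05 in limma. The enzymes run from -0.84 (Acadvl) to -0.05 (Acads), and their median of -0.48 lies beside -0.46 for peroxisomal beta-oxidation.

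The later steps of the cycle are carried out by the trifunctional protein, whose alpha subunit (Hadha) holds the hydratase and long-chain dehydrogenase activities and whose beta subunit (Hadhb) holds the thiolase, and by Hadh, the matrix dehydrogenase for medium and short chains. None of the 3 passed the limma test. Hadha (ENSMUSG00000025745.12, chromosome 5 from 30118304 to 30155162, minus strand) was at 8568, 8926, 11614, 13627 and 9314 in ApcMin/+ mice and at 9347, 9172, 8801 and 9540.2 in ApcMin/+; p16cis/cis mice, which overlapped fully. The log2 fold change of Hadha was -0.15 (95% interval -0.47 to 0.16, limma adjusted p = 0.495).

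Hadhb (ENSMUSG00000059447.13, chromosome 5 from 30155248 to 30184593, plus strand) was at 418, 469, 637, 801 and 437 in ApcMin/+ mice and at 418, 373, 331 and 417 in ApcMin/+; p16cis/cis mice. The lowest mouse of the first group and the highest of the second were all but equal. Hadhb means were 552 ± 164 (SD, n = 5) and 384.6 ± 41.6 (SD, n = 4), and the log2 fold change of -0.48 (SE 0.19, 95% interval -0.89 to -0.07) did not pass (limma adjusted p = 0.0978, unadjusted 0.025). The longest transcript of Hadhb shares stretches of 200 to 226 bp, at up to 94.7% identity, with transcripts of 14 other genes, 8 of them above Hadhb in mean normalized count (up to 4121 for Ube2d3, against 478), so its level and change are uncertain where reads from these stretches were split. Hadh (ENSMUSG00000027984.8, chromosome 3 from 131233419 to 131272101, minus strand) was at 9776, 9888, 10964, 13864 and 7708 in ApcMin/+ mice and at 9221, 8162, 8993 and 7627 in ApcMin/+; p16cis/cis mice, with overlap, a log2 fold change of -0.27 (95% interval -0.61 to 0.06) and a limma adjusted p of 0.239.

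Hadha and Hadhb lie head to head on chromosome 5, with 85 bases between the gene starts of GENCODE M21, and 69.4% of those bases are G or C. The RefSeq starts, at 30154980 and 30155253, lie further apart. The stretch is shown because it is the whole interval between the GENCODE starts of the genes for both subunits (chr5:30155163-30155247, GRCm38, RefSeq sequence, plus strand).
Hadha to Hadhb interval: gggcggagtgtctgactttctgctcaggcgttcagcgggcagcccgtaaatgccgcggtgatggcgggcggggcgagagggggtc
The log2 ratio of Hadhb to Hadha, uncorrected for length, was -4.36, -4.25, -4.19, -4.09 and -4.41 in ApcMin/+ mice and -4.48, -4.62, -4.73 and -4.52 in ApcMin/+; p16cis/cis mice, without overlap and with a mean difference of -0.33. The genes differ in base composition, with 39.1% G or C in the longest transcript of Hadhb and 51.3% in that of Hadha. With the correction for GC content and transcript length the difference in the ratio was -0.05 and the genotypes overlapped, and the log2 fold change of Hadhb itself was -0.18 (limma adjusted p = 0.655). The fourth ratio, Acadvl to Hadha, differed by -0.69 without overlap between genotypes, and by -0.80 with that correction.

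PPARα, PPARδ and HNF4A bind direct repeats of the hexamer AGGTCA, with a single base between the repeats, and ERRα binds a single extended copy. These receptors are known to act on genes of fatty acid oxidation, and the promoters were read for these letters in the RefSeq table of GRCm38.p6 (250 bases before to 50 after each start), in which all 10 enzymes were found. The exact direct repeat (AGGTCA, any base, AGGTCA) was in 0 of the 10 windows and in 0.0396% of all 32851 windows on either strand. The extended site TNAAGGTCA was in 0 of the 10 and in 1.28% of all windows. With motifs this rare, their absence from 10 windows carries little information. The hexamer AGGTCA alone, which both longer motifs contain, was in 3 of the 10 (Acadvl, Cpt1a and Acadm) and in 16.3% of all windows. These 3 genes were among the 5 that passed, and a link between the hexamer and the change was not tested. The stretches that hold the hexamer are shown 5′ to 3′ in the direction of the gene. The match is in capitals (TGACCT where it lies on the opposite strand). A match is a description of the letters and says nothing of binding. Positions are counted from the RefSeq start of each gene, which is 70015428 for Acadvl and 153944643 for Acadm.
Acadvl, chr11:70015463-70015562, minus strand, match from position -87 relative to the gene start: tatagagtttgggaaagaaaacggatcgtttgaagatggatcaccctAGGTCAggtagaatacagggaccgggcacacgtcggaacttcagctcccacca
Cpt1a, chr19:3323160-3323259, plus strand, match from position -94 relative to the RefSeq start at 3323301, which lies inside the gene as GENCODE draws it: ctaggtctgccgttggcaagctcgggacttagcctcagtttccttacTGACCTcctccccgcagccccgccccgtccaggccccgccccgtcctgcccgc
Acadm, chr3:153944794-153944893, minus strand, match from position -249: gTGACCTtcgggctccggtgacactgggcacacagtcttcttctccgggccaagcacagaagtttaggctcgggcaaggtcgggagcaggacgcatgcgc

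Levels can be compared between genes only per length, and for this the normalized count was divided by the longest annotated transcript. On this scale Acads stood highest, at a mean over the 9 mice of 2873 per kb (2141 to 4293), followed by Hadh at 2554, Hadha at 2459 and Acadl at 1947. Acadm (1409), Cpt1a (1386), Slc25a20 (1267) and Cpt2 (1062) formed a middle group, in which Acadm was above Cpt1a in 5 of 9 mice and Cpt1a above Slc25a20 in 6 of 9. Acadvl was at 705 per kb and Hadhb at 109 per kb (75.3 to 183), 26.4-fold below Acads. Ranges of neighbors in this order overlapped in every case but Acadvl and Hadhb, whose ranges were apart. With the union of all exons as the length, Acads and Hadh remained first and second and Acadvl and Hadhb last, while Hadha went from the third to the fourth place and Cpt2 from the eighth to the fifth.

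**Figure D3:**
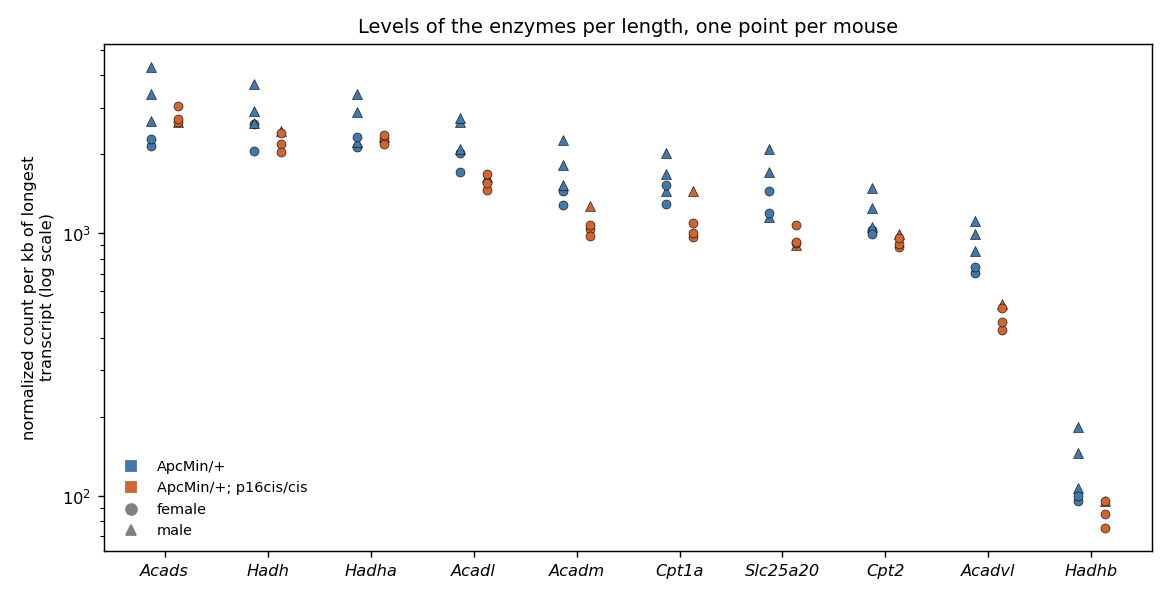
Normalized count per kb of the longest transcript (vertical axis, log scale) for the 10 enzymes in order of their mean, 1 point per mouse, with ApcMin/+ in blue, ApcMin/+; p16cis/cis in orange, circles for females and triangles for males. The means run from 2873 per kb for Acads to 109 per kb for Hadhb, which lies apart from all other enzymes.

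The mice differed from each other across the whole set. ApcMin/+ replicate 4 had the highest value for 10 of 10 enzymes and ApcMin/+ replicate 3 the second highest for 10 of 10. The median deviation of the 10 enzymes from their own mean over the 9 mice, on the log2 scale, was 0.59 in ApcMin/+ replicate 4 and 0.37 in replicate 3, whereas it was 0.01, 0.05 and -0.08 in ApcMin/+ replicates 1, 2 and 5. In ApcMin/+; p16cis/cis replicates 1 to 4 it was -0.10, -0.34, -0.33 and -0.18. ApcMin/+ replicate 5 and ApcMin/+; p16cis/cis replicate 1 were thus close, at -0.08 and -0.10. ApcMin/+ replicate 4 also had the highest sum of 10 absorptive colonocyte markers (312779, against 153483 to 173209 in the other ApcMin/+ mice and 133493 to 166192 in ApcMin/+; p16cis/cis mice), the lowest sum of 11 immune markers (183, against 361 to 1974 in the other 8 mice) and the lowest sum of 10 crypt stem and proliferation markers (7083, against 9937 to 14441). Car1 alone gave 165058 of that absorptive sum, against 65000 to 82124 in the other ApcMin/+ mice. Car4, Krt20, Guca2a and Guca2b were also highest in ApcMin/+ replicate 4, whereas Slc26a3, Aqp8, Ceacam20, Slc37a2 and Muc3 were highest in other mice. Of the absorptive colonocyte markers, Slc26a3 was lower and Slc37a2 higher in ApcMin/+; p16cis/cis mice, and the other 8 did not pass. Of the crypt stem and proliferation markers 1 (Mki67) was higher and 0 were lower, and their summed level was 7083 to 11667 in ApcMin/+ mice and 11043 to 14441 in ApcMin/+; p16cis/cis mice. Most of the rise in the mean of this sum, from 9906 to 12972, came from Mki67, whose mean went from 2332 to 4436. Pcna and Mcm2 had negative log2 fold changes (-0.45 and -0.11) and the other markers positive ones, none of which passed. The part of these cell type levels and of depth in the change of the enzymes was not tested. With the mitochondrially encoded share as a covariate in limma, 0 of the 10 enzymes passed, and neither did any of the 14410 genes (798 had an unadjusted p under 0.05). Genotype and this share cannot be told apart with these mice.

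**Figure D4:**
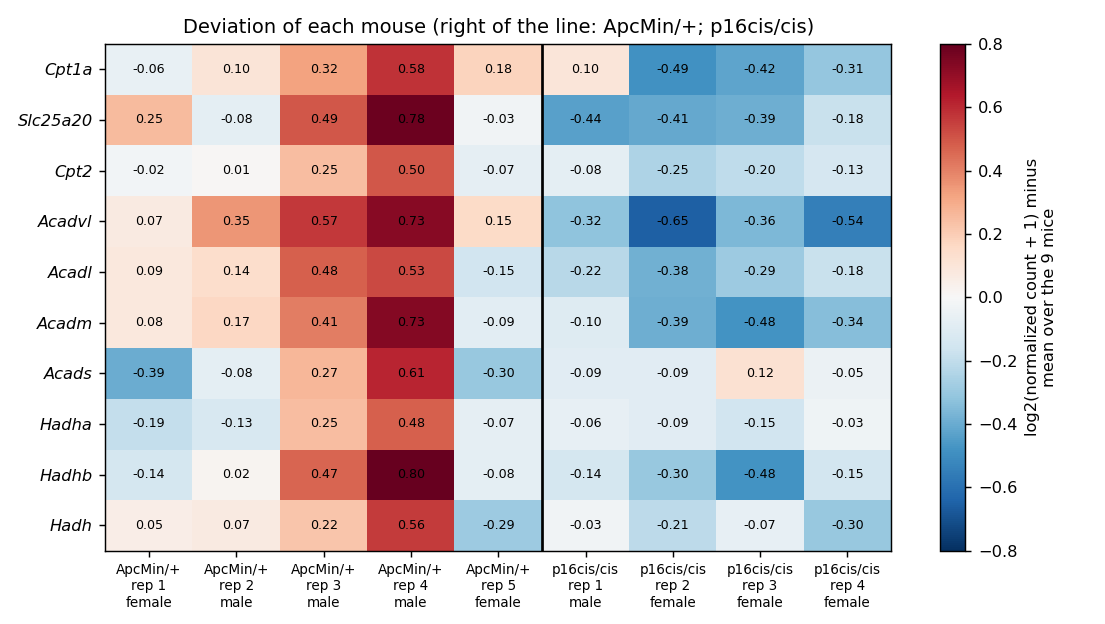
Deviation of each mouse (columns) from the mean over the 9 mice for each enzyme (rows), as log2(normalized count + 1), red above and blue below the mean, with a line between the genotypes. ApcMin/+ replicate 4 is the highest mouse in every row, at 0.48 to 0.80, and ApcMin/+ replicate 3 the second highest.

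Both mice with the highest levels were male, and sex was unevenly spread, with 3 of 5 ApcMin/+ mice and 1 of 4 ApcMin/+; p16cis/cis mice being male. Among ApcMin/+ mice, each of the 3 males was above both females for 7 of the enzymes, the exceptions being Cpt1a, Slc25a20 and Hadha, against 13.5% of all genes, and replicates 3 and 4 are 2 of those males. Within females, all 3 ApcMin/+; p16cis/cis mice were below both ApcMin/+ mice for 7 enzymes (Cpt1a, Slc25a20, Cpt2, Acadvl, Acadl, Acadm and Hadhb), as for 22% of all genes tested. Acads went the other way, with 5358 to 6196 in the ApcMin/+; p16cis/cis females and 4332 and 4619 in the ApcMin/+ females, as did 22.2% of all genes. The single ApcMin/+; p16cis/cis male was below all 3 ApcMin/+ males for 9 enzymes, Acads included, and between them for Hadha. Of all genes 30.6% were lowest in that 1 mouse in the same way, and the enzymes moved together within a mouse, so these 9 are not independent. An interaction term of genotype and sex in limma rests on that 1 male, whose spread is assumed to be that of the other groups, and 0 of the 10 enzymes and 0% of all genes passed it (979 genes had an unadjusted p under 0.05). With sex as a covariate 2 of the 10 enzymes passed (Acadvl and Acadm), and the log2 fold change was -0.38 for Cpt1a (limma adjusted p = 0.0865), -0.59 for Slc25a20 (0.0575) and -0.39 for Acadl (0.0795).

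A list of 35 held other genes of mitochondrial fatty acid oxidation and some of related acyl-CoA metabolism, such as propionate breakdown. Of the 35, 32 could be tested (Cpt1b, Cpt1c and Acsl6 had too few reads), and the shares below are those of the whole list. In limma 8 of the 32 were lower and 2 were higher, with a median log2 fold change of -0.22. These are 25% and 6.25%, against 8.75% lower and 8.14% higher among all genes tested. The 2 higher genes are too few to tell their share from that of all genes. Among them were the genes that hand electrons on from the acyl-CoA dehydrogenases. Etfdh, the flavoprotein dehydrogenase of the inner membrane, went from 2434 ± 467 (SD, n = 5) to 1389 ± 163 (SD, n = 4), a log2 fold change of -0.79 (limma adjusted p = 0.00571). Etfa, the alpha subunit of the electron transfer flavoprotein that accepts those electrons, went from 2389 ± 279.9 to 1572 ± 136 (-0.60, limma adjusted p = 0.00629). Its partner subunit Etfb moved in the opposite direction, from 562 ± 288 to 1004 ± 217 (0.93, limma adjusted p = 0.0446), with 328 to 1052 in ApcMin/+ mice and 686 to 1151 in ApcMin/+; p16cis/cis mice overlapping. Of the 9 fits that left out 1 mouse, Etfb passed in 2, those without ApcMin/+ replicate 4 or ApcMin/+; p16cis/cis replicate 1, with a limma adjusted p of up to 0.121 in the others, and it did not pass in edgeR (adjusted p = 0.0649). Slc22a5, the plasma membrane carnitine transporter, was lower (-0.77, limma adjusted p = 0.00909), as was Acsl3, an acyl-CoA synthetase (-0.70, limma adjusted p = 0.0112). Acot13, an acyl-CoA thioesterase, was higher (0.40, limma adjusted p = 0.0404) and likewise passed in 2 of those 9 fits, again without ApcMin/+ replicate 4 or ApcMin/+; p16cis/cis replicate 1. Acad11, Acad9, Decr1 and Mut, a gene of propionate breakdown, made up the rest of the lower genes.

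Of 19 regulators of fatty acid oxidation 6 were lower and 1 was higher, with a median log2 fold change of -0.22. These are 31.6% and 5.26%, against 8.75% lower and 8.14% higher among all genes tested. Here too the 1 higher gene is too few to tell its share from that of all genes. Pdk4, a kinase that holds back pyruvate dehydrogenase and a known PPAR target, was at 183, 457, 1215, 1488 and 270.1 in ApcMin/+ mice and at 96.0, 75.0, 67.6 and 130.02 in ApcMin/+; p16cis/cis mice, a log2 fold change of -2.55 (SE 0.54, limma adjusted p = 0.0105). ApcMin/+ replicates 3 and 4, which stood highest for the enzymes, were also the highest for Pdk4. Acacb, whose product malonyl-CoA inhibits Cpt1a, was lower too (-0.81, limma adjusted p = 0.0228), and so were Ppargc1a, a coactivator of mitochondrial genes (-0.59, limma adjusted p = 0.0272), Ppara (-1.15, limma adjusted p = 0.0111) and the kinase subunits Prkaa1 and Prkaa2. Leaving out ApcMin/+ replicate 3 or ApcMin/+; p16cis/cis replicate 3 or 4 ended the call on Acacb (limma adjusted p up to 0.0585), and leaving out ApcMin/+ replicate 1 or 2 or ApcMin/+; p16cis/cis replicate 2 or 4 that on Ppargc1a (up to 0.0835). The log2 fold change was negative for 14 of the 19. Among the others only Ppard passed, going from 5743 ± 457 to 7934 ± 479 (0.47, limma adjusted p = 0.0109).

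Among related pathways, peroxisomal beta-oxidation, which shortens very long chains outside mitochondria, had 8 of 15 tested genes lower and 1 higher and a median log2 fold change of -0.46, close to the -0.48 of the mitochondrial enzymes. It held larger changes, since 4 of its genes passed with a fold change over 2 whereas 0 of the 10 mitochondrial enzymes did. Of 18 genes of the citric acid cycle, which takes up the acetyl-CoA, 4 were lower (Dld, Suclg2, Sucla2 and Sdha, by log2 fold changes of -0.63 to -0.44) and 0 were higher, with a median of -0.21. The call on Sdha, the flavoprotein subunit of succinate dehydrogenase, was lost without ApcMin/+ replicate 3 or ApcMin/+; p16cis/cis replicate 2 or 4 (limma adjusted p up to 0.0605). The share lower was 53.3% in the peroxisomal list and 22.2% in the citric acid cycle, against 8.75% of all genes tested. The share higher was 6.67% and 0%, against 8.14%. With a fold change over 2, 1.64% of all genes were lower. These lists were not tested against each other.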

How the data were processed

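The authors deposited 1 table of signal values, normalized counts per gene made by DESeq2 from RSEM gene levels of BOWTIE2 alignments of BGISEQ-500 reads, per the study's methods and the values. Tool versions, genome build, annotation and strand setting are not given in the sources used here. Dividing each deposited signal value by the value of 1 read in its column recovered whole reads for 100% of positive values (tolerance 0.01 reads). GENCODE M21 (GRCm38) held 54079 of the gene identifiers, 52480 of them in the version listed, and its coordinates are given.

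The 14410 genes that reached a value of 10 in 4 or more mice were tested with limma 3.58.1 in R 4.3.3 (trended variance, log2(value + 1), genotype as the only term, Benjamini-Hochberg adjustment over all of them). Passing meant an adjusted p under 0.05. DESeq2 1.42.0 and edgeR 4.0.16 on the recovered reads served as alternatives. The procedure was tested on simulated counts, drawn independently for each gene without effects of sex, GC content or the mitochondrially encoded share. That test therefore does not bear on those effects or on genes that move together. Labels number the mice 1 to 5 and 1 to 4. Each number names different mice, and no pair was formed. Nothing in the labels says whether mice were littermates. The limma p-values set the genotype difference against the spread between these mice, with variances drawn toward a trend over all genes tested.

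The 10 enzymes and the gene lists were chosen with earlier results of these data known. Named genes are the 10 enzymes, up to 4 genes in each direction with the largest change among those passing in each other list, the 5 genes most correlated with the enzymes, and Cdkn2a. The genes of the peroxisomal list are given only by their counts, and some results are not reported here. Dvl2, Gm5131, Ube2d3 and the marker genes named were chosen after their values were seen, as were Prkaa1, Prkaa2, Acad11, Acad9, Decr1 and Mut, named to complete counts. Transcripts were compared with blastn 2.17.0. Alternatives covered scaling, pseudocount, filter, tool, sex, replicate block, the mitochondrially encoded share and each mouse left out. A loess correction of each library for GC content and transcript length (span 0.5) and the ratios between enzymes were added after seeing the data.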

Additional observations from a re-analysis of the deposited data

Results flagged for a closer look

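In a search of 60 sets of values (the enzymes, the ratios between them, the mitochondrially encoded share and the named genes of the other lists, each within 1 genotype) for a mouse set apart from the rest of its genotype, 2 were found, where chance alone gives about 3 at 1 in 20. Slc25a20 was at 2951 in ApcMin/+; p16cis/cis replicate 4, above the 2471 to 2547 of the other 3 mice of that genotype and still below every ApcMin/+ mouse. Ppard was at 8647 in the same mouse, against 7634 to 7776 in the other 3.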

How the results depend on the processing

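The 10 enzymes were refitted with each mouse left out in turn and with 13 other settings, and Acadvl kept its direction in all of these 22 fits and passed in all but the one with the mitochondrially encoded share as a covariate (limma adjusted p = 0.881). The count of enzymes lower was 5 with a pseudocount of 0.1, a filter on every mouse, TMM scaling, scaling by reads outside mitochondrially encoded genes, DESeq2 (3251 of all genes called) and edgeR with TMM (2469), and 4 without a filter or in edgeR with RLE. It was 2 with sex as a covariate, 1 in females alone, 3 after the correction for GC content and length, which was chosen after seeing the data, and 0 with the mitochondrially encoded share, a fold change over 2 or Bonferroni adjustment. With the replicate number as a block it was 4 and Cpt1a was lost (limma adjusted p = 0.0749), while 1 gene of the other fatty acid oxidation list was higher. Same-numbered mice correlated between -0.18 and 0.14 in their deviations. These few weak correlations gave no sign that the numbers pair the mice, and they cannot exclude a shared litter or batch. Leaving out 1 mouse gave 1 to 5 enzymes lower and 0 to 0 higher, 6 to 9 other oxidation genes lower and 0 to 3 higher, 3 to 8 regulators lower and 1 to 1 higher, 6 to 9 peroxisomal genes lower and 0 to 1 higher, 3 to 4 citric acid cycle genes lower and 0 to 0 higher, and 1183 to 3488 of all genes called (648 to 1797 lower, 535 to 1691 higher).

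With the mitochondrially encoded share as a covariate all counts were 0 and the log2 fold change was above 0 for Cpt1a (0.0594), Cpt2 (0.00248), Acads (0.424), Hadh (0.107) and Hadha (0.0760). Acads was also above 0 with sex as a covariate (0.0738), in females alone (0.344) and without ApcMin/+ replicate 3 or 4 (leaving out 1 mouse gave -0.15 to 0.10), as was Hadha in females alone (0.0371). The cause was not tested. All genes called, lower and higher were 27, 22 and 5 under Bonferroni, 501, 237 and 264 with a fold change over 2, 1437, 761 and 676 with sex as a covariate, and 898, 379 and 519 in females, where fewer mice were used. With the GC and length correction 830 of all genes, 5 other oxidation genes and 3 enzymes were lower, and 0 other oxidation genes and 0 peroxisomal genes were higher. In females 1 other oxidation gene, 0 regulators, 5 peroxisomal genes and 0 citric acid cycle genes were lower, and 0 regulators and 0 peroxisomal genes were higher. With a fold change over 2 these lists had 0, 2, 4 and 0 genes lower and 0 higher, and under Bonferroni 0, 0, 2 and 0 lower and 0 higher. Other oxidation genes higher were 1 in edgeR with TMM, 1 without a filter and 0 with sex as a covariate. Each enzyme had at least 220 reads in every mouse, and arms of 5 and 4 mice limit the precision.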

Other observations

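Over the 9 mice, the genes whose log2 values followed the mean of the 10 enzymes most closely, among 10410 other genes with a mean normalized count of at least 100, were Vldlr (Pearson r = 0.98), Mttp (0.974), Ephx2 (0.968), Retsat (0.967) and AC102506.1 (0.967). Vldlr encodes a lipoprotein receptor and Mttp the transfer protein that loads lipid onto lipoproteins. The values share libraries, scaling and the genotype difference, and the r is given as a description.

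The longest transcripts of the enzymes differed in base composition, from 39.1% G or C in Hadhb to 59.7% in Acads, and these are also the enzymes with the lowest and the highest level per kb. The enzymes between them did not keep this order. Acadvl, at 53.7%, had rank 9 in level per kb, and Acadl, at 45.1%, had rank 4.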
